A study of Mus musculus with 4 samples.

Results

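The AP-1 family factors described here are 10 mouse genes of the bZIP class: Fos, Fosb, Fosl1 and Fosl2 of the FOS group, Jun, Junb and Jund of the JUN group, and Atf3, Batf and Batf3. Members were taken from a fixed list of symbols, and a probe set counted only where the platform annotation gave it exactly 1 symbol. Of the 10 genes, 9 had such a probe set, out of 22180 genes named this way on the array. Fosl1 had none of its own, and Batf3 stayed below the signal floor of 3.83 (log2) in the 4 arrays, with values from 3.54 to 3.62. The other 8 members passed the floor, as did 12456 genes in all, and where a gene had several probe sets the brightest stood for it.

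AP-1 is a dimer held together by leucine zippers. FOS proteins cannot pair with themselves and bind DNA only beside a JUN protein, whereas JUN proteins also form dimers among themselves. The dimers recognise a short element first found as the phorbol ester response element, so the family is a classical readout of protein kinase C. In lymphocytes AP-1 acts with NFAT on cytokine genes, and BATF, which lacks a transactivation domain, pairs with JUN proteins and binds next to IRF4 or IRF8.

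The samples were B lymphocytes sorted by B220 (CD45R) from suspensions of spleen, thymus and lymph node of C57BL/6 mice, with 1 Affymetrix array in each of 4 groups. Wild-type and Tilcara cells, the latter from a mutant mouse model of PKCbeta on the same background, were either left without stimulation or treated for 4 hours with the phorbol ester PMA at 10 ng/mL and the calcium ionophore A23187 at 1 µM. The sources used here do not give the mutant allele, the age of the mice or how many mice stand behind each array. No time in culture is given for the non-stimulated cells, so whether they too were kept for 4 hours is unknown. Any part of culture time in the differences between stimulated and non-stimulated arrays was not tested. Signals are log2 values from RMA, so that 1 unit is 2-fold, and array medians lay between 3.73 and 3.79. Each group had 1 sample, so differences between single arrays are given with no test. The exception is a limma fit that takes the genotypes as the 2 samples of each state. Its p-values set a mean difference against an error from how unequally both genotypes responded, moderated over all genes. That error includes any genotype difference in response, and the samples' spread may be technical.

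The label of the cells was checked against B cell markers. All 8 named markers of 9 listed, among them Cd79a, Cd79b, Ms4a1 and Pax5, were above the floor in every array, and 6 of them fell with stimulation by limma. T cell markers were also seen, with 8 of 10 above the floor in non-stimulated wild type, 4 in stimulated wild type, 4 in non-stimulated Tilcara and 3 in stimulated Tilcara. In the same order the summed linear signal of the T cell list was 256, 188, 149 and 140, and that of the 9 neutrophil markers 798, 81, 92 and 68. In non-stimulated wild type the T cell markers Thy1, Lat and Cd3d read 5.40, 5.62 and 5.09 and the neutrophil markers S100a8 and S100a9 read 9.004 and 7.61, while Cd8a and Ly6g were below the floor in the 4 arrays. Of 8 NK cell markers, 7 were above the floor in each non-stimulated array and 2 in each stimulated array, with a summed signal of 287 and 316 without stimulation and of 127 and 118 with it, in wild type and Tilcara. All 7 NK cell markers past the floor fell with stimulation by limma, against 22.8% of all genes. Klrd1, Klrk1, Ncr1 and Klre1 passed the floor only through the non-stimulated arrays, so their direction was fixed by the filter. The part of NK cell transcripts in the decreases below was not tested. In such sorted populations fewer cells of a type and less RNA per cell cannot be told apart.

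The family split between the non-stimulated and stimulated arrays. Fosl2, Atf3 and Batf rose and Fos, Fosb, Jun and Jund fell over both genotypes, while Junb did not pass (limma with Benjamini-Hochberg adjustment, threshold 0.05). Thus 3 of 8 members rose, against 22.0% of all genes, and 4 of 8 fell, against 22.8%. In wild type 3 members were higher by 2-fold or more (13.4% of genes) and 4 were lower by as much (15.9%). In Tilcara these counts were 3 higher (11.9% of genes) and 5 lower (14.3%).

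**Figure D1:**
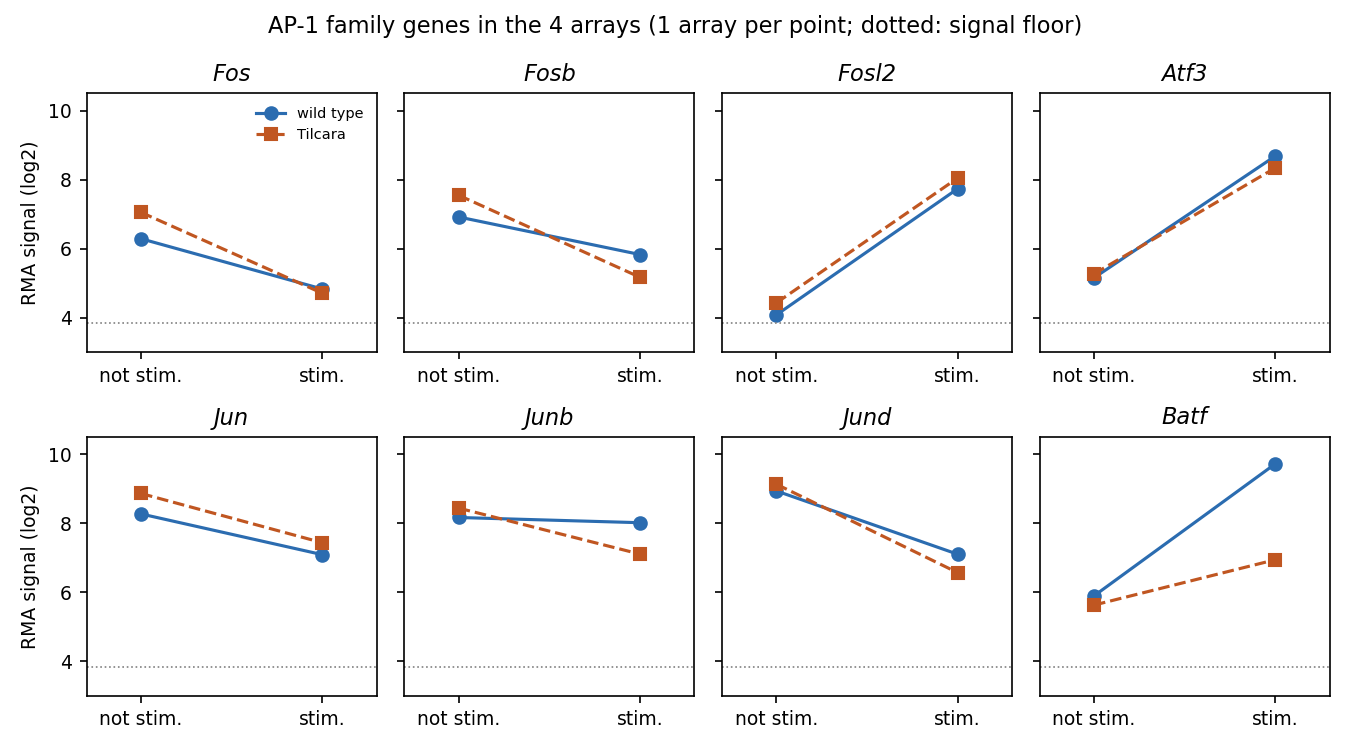
RMA signal (log2) of the 8 members past the signal floor in non-stimulated and stimulated cells, 1 array per point, with wild type as blue circles, Tilcara as orange squares and the floor of 3.83 as a dotted line. Fosl2, Atf3 and Batf are higher in both stimulated arrays, and the wild-type and Tilcara lines lie farthest apart for stimulated Batf, at 9.72 and 6.94.

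Among the FOS group, Fosl2, which encodes FRA2, a FOS protein without the strong transactivation domain of c-FOS, had signals of 4.08 in non-stimulated and 7.74 in stimulated wild type, and of 4.43 and 8.05 in Tilcara (probe set 17436237). Both stimulated arrays were far above both non-stimulated ones. The increase was 12.6-fold in wild type and 12.3-fold in Tilcara, and limma gave a log2 change of 3.64 with an SE of 0.15 (adjusted p = 0.00109). By mean change Fosl2 had rank 38 from the top of 12456 genes.

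Fos, the prototype immediate-early gene, whose transcript is normally made within minutes of a stimulus and quickly degraded, was lower at this time point. Its signal was 6.29 without and 4.83 with stimulation in wild type, and 7.05 and 4.71 in Tilcara (probe set 17277387). Both stimulated arrays lay below both non-stimulated ones, by 2.75-fold in wild type and 5.08-fold in Tilcara. Limma gave a log2 change of -1.90 with an SE of 0.26 (adjusted p = 0.00607).

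Fosb, a close relative of Fos, followed the same order (probe set 17487211). Signals were 6.92 and 5.83 in wild type and 7.55 and 5.17 in Tilcara, without and with stimulation. The decrease was 2.13-fold in wild type and 5.20-fold in Tilcara, and limma gave a log2 change of -1.73 with an SE of 0.34 (adjusted p = 0.0164). Fos and Fosb were thus lowest in the stimulated Tilcara array and highest in the non-stimulated Tilcara array.

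The JUN group supplies the partners that FOS and BATF proteins need. Jun, which encodes c-JUN, had signals of 8.27 and 7.09 in wild type and of 8.86 and 7.43 in Tilcara, without and with stimulation (probe set 17427312). The groups of each state did not overlap, and the decrease was 2.27-fold in wild type and 2.69-fold in Tilcara. Limma gave a log2 change of -1.30 with an SE of 0.16 (adjusted p = 0.00463).

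Jund, whose protein is generally kept at a steady level in resting cells, fell as well, by its brighter probe set. Its signals were 8.94 and 7.10 in wild type and 9.13 and 6.57 in Tilcara, without and with stimulation (probe set 17510127). The decrease was 3.57-fold in wild type and 5.92-fold in Tilcara, and limma gave a log2 change of -2.20 with an SE of 0.23 (adjusted p = 0.00322). Jund is the only member with a second probe set, 17502001, which read 6.55, 5.68, 7.01 and 5.60 in the order non-stimulated and stimulated wild type, then Tilcara. That probe set was lower after stimulation too, by -0.86 in wild type and -1.42 in Tilcara, against -1.84 and -2.56 for the brighter one. With the mean of both probe sets the log2 change over both genotypes was -1.67, smaller than those of Fos and Fosb, whereas the brighter probe set gave the largest decrease among the 8 members.

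Junb, whose product can restrain c-JUN, differed in its response between the genotypes. Its signal was 8.17 and 8.02 in wild type, nearly level, and 8.44 and 7.10 in Tilcara, without and with stimulation (probe set 17511259). The difference was 1.11-fold lower in wild type and 2.52-fold lower in Tilcara. Limma, which counts such unequal responses as error, gave a log2 change of -0.74 with an SE of 0.32 (adjusted p = 0.125), and only cyclic loess among the alternatives tried brought Junb past the threshold, at -0.95 (limma, adjusted p = 0.0435).

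Among the ATF and BATF genes, Atf3, a stress-responsive factor that can repress as a homodimer, was higher with stimulation in both genotypes (probe set 17231033). Its signal was 5.16 and 8.69 in wild type and 5.27 and 8.34 in Tilcara, an increase of 11.6-fold and 8.41-fold. The stimulated arrays were well above the non-stimulated ones, and limma gave a log2 change of 3.30 with an SE of 0.18 (adjusted p = 0.00121). By mean change Atf3 had rank 60 from the top.

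Batf had the highest wild-type response of the 8 measured members and the most unequal one (probe set 17277404). BATF is needed for class switching in B cells and for several T helper programmes. The signal was 5.89 without and 9.72 with stimulation in wild type, 14.2-fold higher, and 5.63 and 6.94 in Tilcara, 2.49-fold higher. The stimulated Tilcara array lay above both non-stimulated arrays but far below stimulated wild type. Limma gave a log2 change of 2.57 with an SE of 0.61 (adjusted p = 0.0285), the widest SE of the 8 members.

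The 100 bases before the start site are shown for the members that rose, to set beside genes that moved together; they are from RefSeq on GRCm38.p6, which the deposited files do not name. All 9 genes with a usable probe set matched a RefSeq window of 250 bases before to 50 after the start. Capitals mark the motif TGACG, the 5-letter core of the cyclic AMP response element, searched on both strands, where CGTCA is its reverse complement. Fosl2 lies at chr5:32136372-32136471 on the plus strand, Atf3 at chr1:191183334-191183433 on the minus strand and Batf at chr12:85686620-85686719 on the plus strand.
Fosl2: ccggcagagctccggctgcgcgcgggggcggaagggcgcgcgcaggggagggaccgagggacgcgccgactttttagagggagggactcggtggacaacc
Atf3: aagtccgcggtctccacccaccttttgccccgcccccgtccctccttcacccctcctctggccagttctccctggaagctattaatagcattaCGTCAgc
Batf: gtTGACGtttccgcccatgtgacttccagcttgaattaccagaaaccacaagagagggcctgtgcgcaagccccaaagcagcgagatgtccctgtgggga

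For the members that fell, the same stretch is shown for Fos at chr12:85473790-85473889 on the plus strand, Fosb at chr7:19310046-19310145 on the minus strand, Jun at chr4:95052223-95052322 on the minus strand and Jund at chr8:70697639-70697738 on the plus strand. Jund, like Fosl2, holds none of the motifs searched. In Jun the capitals mark TGACATCA, a variant of the AP-1 and cyclic AMP elements, known as a site that JUN and ATF2 bind at this promoter.
Fos: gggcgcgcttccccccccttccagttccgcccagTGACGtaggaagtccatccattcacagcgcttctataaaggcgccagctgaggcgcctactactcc
Fosb: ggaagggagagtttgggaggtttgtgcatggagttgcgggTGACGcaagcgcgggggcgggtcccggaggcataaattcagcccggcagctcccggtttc
Jun: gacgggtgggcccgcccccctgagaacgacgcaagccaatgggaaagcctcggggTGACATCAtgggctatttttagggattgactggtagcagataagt
Jund: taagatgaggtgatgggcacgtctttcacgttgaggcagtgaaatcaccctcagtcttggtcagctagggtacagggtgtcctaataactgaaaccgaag

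TGACG was in the 300-base windows of 5 of the 9 genes, Fos, Fosb, Junb, Atf3 and Batf, and in 20.8% of all 32851 windows. Those 5 genes include some that rose, some that fell and Junb, so the letters did not divide the family by response. TGACATCA was in the window of Jun alone and in 3.62% of all windows. The AP-1 element TGANTCA (7.81% of windows), the full element TGACGTCA, which contains TGACG (1.79%), and the CArG box bound by SRF (1.63%) were in none of the 9 windows. The windows end 250 bases before the start, so motifs farther upstream, in Fos or any other member, could not be found. These matches describe letters only, and binding was not measured.

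The genotypes were then compared within each state, to ask how the PKCbeta mutant differs. Without stimulation no member differed by 2-fold, where 1.08% of genes did so in either direction. Fos was higher in Tilcara by 1.70-fold, Fosb by 1.55-fold, Jun by 1.51-fold, Fosl2 by 1.27-fold, Junb by 1.21-fold, Jund by 1.15-fold and Atf3 by 1.08-fold, and Batf was 1.20-fold lower. So 7 of 8 members were higher in the non-stimulated Tilcara array by some amount, against 52.2% of all genes. Their median log2 difference was 0.31, against 0.02 over all genes.

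After stimulation, Batf was 6.88-fold lower in Tilcara than in wild type and was the single member beyond 2-fold, where 1.70% of genes were so in either direction and 0.747% lower. By this difference Batf had rank 3 from the bottom of 12456 genes. Junb was 1.88-fold lower, Fosb 1.58-fold, Jund 1.45-fold, Atf3 1.27-fold and Fos 1.09-fold. The value of Jund is from its brighter probe set, with a log2 difference of -0.53, against -0.08 for probe set 17502001. Jun and Fosl2 were higher, by 1.27-fold and 1.24-fold. In all, 6 of 8 members were lower in the stimulated Tilcara array, against 47.9% of genes, with a median log2 difference of -0.44, against 0.01 over all genes.

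**Figure D2:**
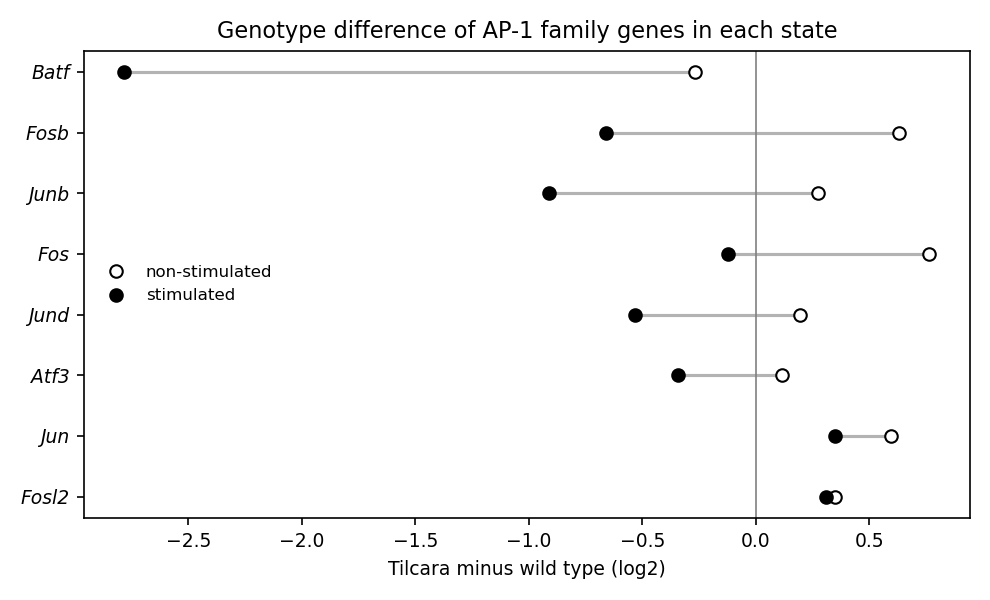
Tilcara minus wild type (log2) for each member, with open circles for the non-stimulated and filled circles for the stimulated pair of arrays, ordered by how far the circles lie apart. Every filled circle lies to the left of its open circle, from Fosl2 (0.35 and 0.31) to Batf (-0.27 and -2.78).

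The difference between the responses was below 0 in 8 of 8 members, against 49.9% of all genes with the deposited scaling. Each member kept that sign after median centring, after cyclic loess and with the mean over probe sets, but these could hardly change it. The median over all genes moved from 0.0008 to -0.0439 with centring and to -0.0267 with loess, and only Jund has a second probe set. The difference between the responses was at least 2-fold in 3 members, where 1.65% of genes were at least 2-fold in that direction. Batf differed most, with a Tilcara response 5.71-fold below the wild-type response and rank 12 from the bottom, followed by Fosb (2.44-fold) and Junb (2.27-fold). Fos differed by -0.89, Jund by -0.73, Atf3 by -0.46, Jun by -0.25 and Fosl2 by -0.04 on the log2 scale. For members that rose, that is a smaller increase in Tilcara, and for those that fell a larger decrease. No test of these differences is possible with 1 array per group. In the limma fit of genotype over both states, 0.00% of genes and no member passed the threshold. At an unadjusted p under 0.05 the fit had 667 of 12456 genes and 1 member, Jun, whose genotype effect was 0.47, SE 0.16, toward Tilcara (limma, adjusted p = 0.866).

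**Figure D3:**
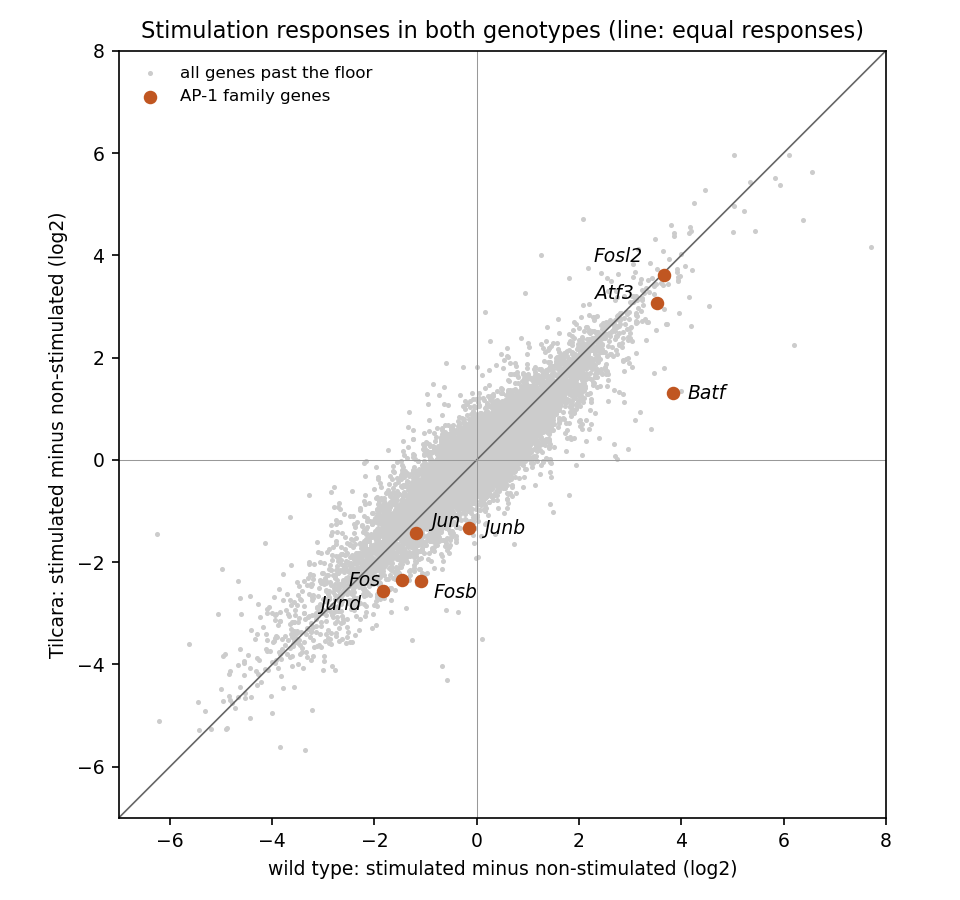
Stimulated minus non-stimulated signal (log2) in wild type on the horizontal and in Tilcara on the vertical axis, with all 12456 genes in grey, the 8 members in orange and a line where both responses are equal. Fosl2 and Atf3 lie near the line at (3.66, 3.62) and (3.53, 3.07), Batf lies well below it at (3.83, 1.32), and the genes that fell lie below it as well.

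Some other transcripts also differed between the genotypes, and their part in these differences was not tested. Without stimulation the neutrophil markers S100a8 and S100a9 differed by -5.19 and -3.52 (log2, Tilcara minus wild type). S100a8 passed the floor only through non-stimulated wild type, and 1 of 5 neutrophil markers past the floor, Mpo, was higher in Tilcara. The summed linear signal of 7 macrophage and monocyte markers was 217 and 192 in wild type and 126 and 225 in Tilcara, without and with stimulation. Counts in this paragraph stand against 52.2% of all genes higher in non-stimulated Tilcara and 47.9% lower in stimulated Tilcara. Of 8 heat shock genes, 6 were higher in the non-stimulated Tilcara array and 5 lower in the stimulated one. Their median log2 differences were 0.32 and -0.05, and only Hspa1a and Hspa1b differed by 2-fold in either state. Hspa1a, which encodes the inducible chaperone HSP70, read 7.79 and 7.89 in wild type but 9.60 and 6.10 in Tilcara, without and with stimulation. Hspa1b read 9.15, 8.48, 10.71 and 6.68 in the same order. These are the order of Fos and Fosb, highest in non-stimulated and lowest in stimulated Tilcara. Of 15 other immediate-early genes past the floor, 11 were higher in non-stimulated Tilcara and 11 lower in stimulated Tilcara. Klf4, Ier2, Ier5, Klf6, Dusp1 and Btg2 had the order of Fos and Fosb too. The difference between the responses was -0.89 for Klf4 and -0.91 for Ier2, whereas Egr2 and Nr4a2 differed by 0.21 and 0.79. Over the 15 genes this difference had a median of -0.28 and was above 0 in 4. Of 9 T cell markers past the floor, 8 were lower in non-stimulated Tilcara and 5 lower in stimulated Tilcara. Cd3e, Cd3g, Cd4 and Cd8b1 passed the floor only through non-stimulated wild type. Their direction between the non-stimulated arrays was therefore fixed by the filter. The T cell markers above the floor in a stimulated array were Thy1, Cd28, Lat and Cd5, and all were lower in stimulated Tilcara. Their log2 differences from stimulated wild type were -1.17, -0.83, -0.73 and -0.27. Thy1 read 3.84 in stimulated Tilcara, close to the floor. Cd28 read 3.46 there, below the floor, and was chosen through stimulated wild type alone, so its direction was fixed by that choice. The other T cell markers were below the floor in both stimulated arrays, among them Cd3d at 3.28 in wild type and 3.61 in Tilcara.

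Genes with profiles most like 2 of the members were found by the root mean square distance of centred log2 values over the 4 arrays. For Fosl2 they were Rgs1 (distance 0.04), Egr2 (0.06) and Ppa1 (0.10). For Batf they were Cish, a cytokine-induced inhibitor of signalling (0.27), the survival gene Bcl2l1 (0.36) and the peptide transporter gene Slc15a3 (0.41). Cish read 4.07 and 8.07 in wild type and 4.41 and 5.76 in Tilcara, and Bcl2l1 read 4.40, 7.27, 3.95 and 5.07, so both were highest in stimulated wild type. In the RefSeq annotation of GRCm38.p6, Fos and Batf are separated by a single protein-coding gene, Jdp2, itself a repressor that dimerises with JUN. Jdp2 read 3.34 and 4.04 in wild type and 3.91 and 3.79 in Tilcara, close to the floor, and did not pass the test of stimulation (limma, adjusted p = 0.386). Atf3 and Batf3 are neighbours in the same way, with Fam71a between them, and Batf3 stayed below the floor where Atf3 rose.

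The wider pathway was followed with 7 lists of genes, whose counts stand against 22.0% of all genes that rose and 22.8% that fell. Log2 changes of genes with a signal below the floor of 3.83 in some array are approximate, and those signals are given. The relatives of AP-1 comprised 29 other bZIP factors, of which 25 were past the floor; 10 rose, 3 fell and 12 did not pass (limma). The small MAF protein gene Mafg (2.03, SE 0.17) and Bach1 (2.51, SE 0.15), whose products form a repressor of antioxidant genes, were among the highest, with the repressor Nfil3 (1.81, SE 0.23) and Nfe2l1 (1.18, SE 0.16). The non-stimulated Tilcara signal of Nfil3, 3.80, was below the floor. After stimulation no gene of this list differed by 2-fold between the genotypes. Maff and Mafk differed most, at -0.63 and -0.56.

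The kinases that act on AP-1 proteins comprised 26 measured genes of 35 listed. Of the 26 genes, 5 rose and 11 fell, so the rises were near the share over all genes. Mapk8, which encodes the JUN kinase JNK1, rose by 1.06 and Mapk9, for JNK2, fell by 1.08. Map2k3, a p38 activator, rose by 2.69 (SE 0.20), while the p38 genes Mapk11 and Mapk14 fell by 2.32 and 2.31 and Rps6ka5, for the nuclear kinase MSK1, fell by 2.20. The stimulated wild-type signals of Mapk14 and Rps6ka5, 3.36 and 3.46, were below the floor. Map3k5, for ASK1, was the gene of this list beyond 2-fold between the stimulated arrays, at 7.70 in wild type and 6.61 in Tilcara.

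Of the 9 measured SRF, ternary complex and MEF2 factors, which act at the Fos and Jun promoters, none rose and 5 fell. Srf itself did not pass (0.11; limma, adjusted p = 0.719). Mrtfa, for a coactivator of SRF, fell by 2.26, Elk3 by 0.81 and Mrtfb by 0.71. Mef2c, for a factor that B cells use downstream of calcium and p38, fell by 2.38 (SE 0.62). Its signal was 10.31 and 6.66 in wild type but 10.25 and 9.14 in Tilcara, so the stimulated Tilcara array stayed 2.48 above wild type, the reverse of Batf.

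Genes for turnover of AP-1 proteins and RNAs gave 3 that rose, 6 that fell and 4 that did not pass, of 13 measured. Csk, for a kinase that restrains SRC family kinases, fell by 2.43, and Gsk3b, whose product primes c-JUN for degradation, fell by 1.62. Zfp36l2 and Zfp36, whose products destabilise AU-rich RNAs, fell by 1.74 and 0.80, and Elavl1, for the stabilising protein HuR, rose by 0.95. The ubiquitin ligase genes Fbxw7 and Itch changed in opposite directions, by 0.68 and -0.80. Trib2 and Zfp36l1 differed most between the stimulated arrays, where Tilcara was higher by 0.72 and 0.56.

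Factors that bind beside AP-1 mostly rose, with 4 of 6 higher and 1 lower. Irf4 rose by 2.08 (SE 0.15) and Irf8 by 1.23 (SE 0.15), and both were alike in the genotypes after stimulation, at 10.53 and 10.28 for Irf4 and 11.60 and 11.54 for Irf8. Junb and Jund, which encode other partners of BATF, were lower in the stimulated Tilcara array by 1.88-fold and 1.45-fold, as given above. For Jund this holds for the brighter probe set, as the other one was nearly level there. Jun, for a further partner, was 1.27-fold higher. Nfatc1 rose by 1.16, Nfat5 by 0.64, and Nfatc3 fell by 0.91.

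Of 18 measured genes known as AP-1 targets, 12 rose, 3 fell and 3 did not pass, with a median limma log2 change of 1.497, against 0.04 over all genes. Plau, for urokinase, rose by 5.67 (SE 0.17), Il2ra by 6.03 (SE 0.15), Il2 by 5.94 (SE 0.85) and Vegfa by 3.77 (SE 0.39), while Vim fell by 2.10. Below the floor were the non-stimulated signals of Il2, 2.08 in wild type and 2.30 in Tilcara, and that of Vegfa in wild type, 3.69. Cd44, Odc1 and Gclm rose by 2.13, 2.06 and 1.83. Between the stimulated arrays 3 of the 18 were at least 2-fold lower in Tilcara, against 0.747% of all genes. They were Il2, at 9.78 in wild type and 6.47 in Tilcara, Tnf, at 10.18 and 8.72, and the collagenase gene Mmp13, at 5.07 and 3.86, whereas Plau read 9.86 and 9.61 and Il2ra 10.68 and 10.58.

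The list of genes known to need BATF in lymphocytes held 10 genes, of which 6 were past the floor; 3 rose, 1 fell and 2 did not pass. Between the stimulated arrays Il10, Il17a and Ctla4 were at least 2-fold lower in Tilcara (0.747% of all genes), but Il17a and Ctla4 passed the floor only through stimulated wild type, so their direction was fixed by the filter and the count is no support. Il10 read 9.52 in wild type and 6.14 in Tilcara, and it rose by 4.23 with stimulation (SE 0.95), from 3.31 in wild type, below the floor, and 3.90 in Tilcara. Il17a, a T helper cytokine, read 5.18 in stimulated wild type and between 2.48 and 2.82 in the other 3 arrays, all below the floor, and did not pass (limma, adjusted p = 0.15). With stimulation Ctla4 read 4.54 in wild type, and its Tilcara signal of 3.32 was below the floor. Maf, which encodes a bZIP factor, was the only one of the 6 that fell, and it fell by 1.10 (limma, adjusted p = 0.0398), and it went the other way between the genotypes. It read 5.69 and 4.05 in wild type and 4.91 and 4.35 in Tilcara, so stimulated Tilcara was higher by 0.30 and the difference between the responses was 1.08. That size depended on the brightest probe set. With the mean over the probe sets of Maf the responses were -0.84 in wild type and -0.56 in Tilcara, and their difference was 0.28. Prdm1, for the plasma cell factor BLIMP-1, read 4.80 in wild type and 5.19 in Tilcara and rose by 0.92, and Bcl6 did not pass, at 7.53 and 7.62. This list was written with the low Batf and Il10 signals of stimulated Tilcara already known, so its direction is no independent evidence.

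**Figure D4:**
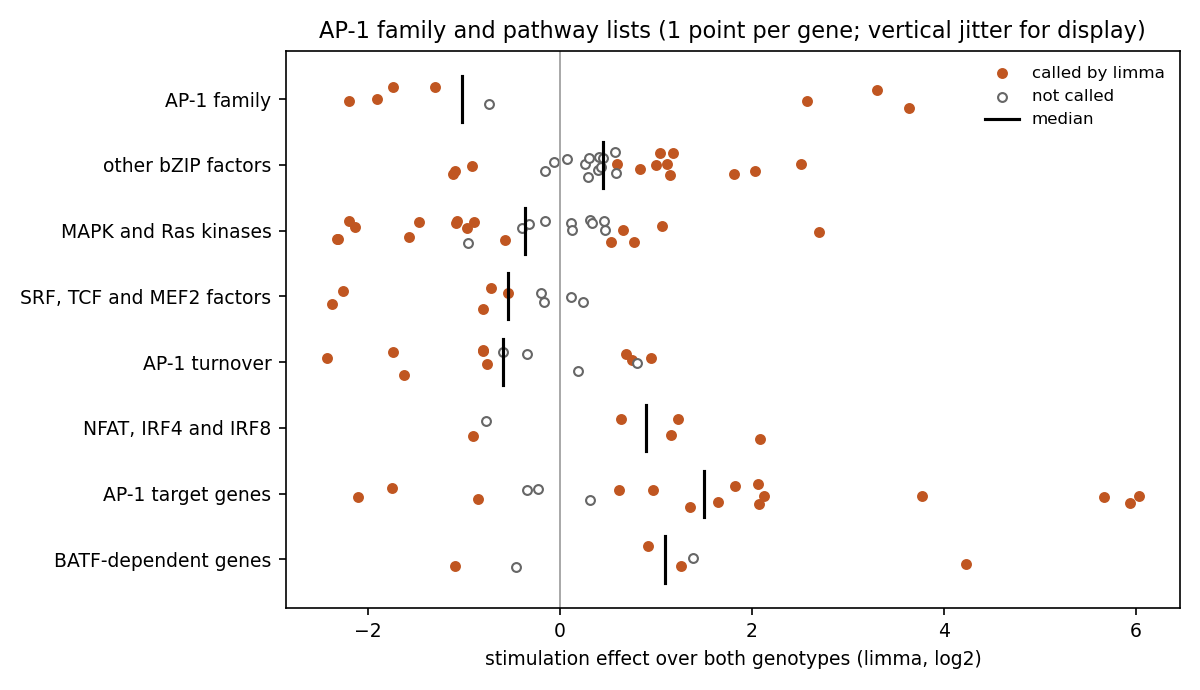
Stimulation effect over both genotypes (limma, log2) for each gene past the floor, 1 point per gene, in the AP-1 family and the 7 pathway lists, with orange points past the threshold of 0.05, open points not past it and black bars at list medians. The family spreads to both sides, from Jund at -2.20 to Fosl2 at 3.64, and the target genes reach farthest right, with Il2ra at 6.03.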

How the data were processed

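The deposited values are log2 signals of 41345 probe sets in 4 samples, which the authors made with RMA (background correction, quantile normalization between arrays and summary per probe set), per the submitters' processing notes; the version was not stated. Quantile normalization hides any change in total RNA per cell. Of the probe sets, 23521 had 1 symbol, 1814 several and 16010 none in the platform annotation. A gene was measured if its highest value reached 3.83, the median over named probe sets. Differences of log2 values have no test; at least 1 counted as 2-fold. limma 3.58.1 in R 4.3.3 fitted stimulation and genotype over the 4 arrays (1 residual degree of freedom), with Benjamini-Hochberg adjustment over 12456 genes. On simulated arrays of that size, 98.8% of 4-fold changes were recovered, and 8% of calls were false, above the nominal 5%. The simulation changed few genes, by the same amount in both genotypes. These rates may therefore not hold for the deposited arrays, where 5576 genes were called for stimulation. The alternatives were median centring, cyclic loess, probe set means, other filters, a stricter size and other variance models. All members were named; from each pathway list, the 4 genes with the largest mean response and the 2 with the largest genotype difference after stimulation. Other genes named, and the heat shock and other immediate-early lists, were chosen after values were seen. Members and lists were chosen with earlier results of these data known. Array number limits the precision.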

Additional observations from a re-analysis of the deposited data

Results flagged for a closer look

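A signal outside the measured members appeared in a probe set that the annotation gives to Ccdc85b and Fosl1 together (17356427), which was therefore assigned to neither gene. It read 3.21 without and 7.34 with stimulation in wild type and 3.53 and 7.06 in Tilcara. The stimulated arrays were higher by 4.12 and 3.54 on the log2 scale, and both non-stimulated values lay below the floor of 3.83, so these differences are approximate. Which of these genes gave the signal cannot be told apart.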

How the results depend on the processing

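Counts of members at least 2-fold lower depended on the size required. At a log2 difference of at least 1.5 in place of 1, 1 member in place of 4 was lower in wild type, 3 in place of 5 in Tilcara, and 1 in place of 3, Batf, in the difference between the responses. The other 85 recomputed counts of members stayed within 1.5 times. No member's called difference changed sign. With the mean over its probe sets Jund differed by -1.35 in wild type and -1.99 in Tilcara. The limma p-value of Batf lay between 0.0111 and 0.0448 over the alternatives (adjusted). Junb passed after cyclic loess alone. Without stimulation, 53 genes were at least 2-fold higher in Tilcara and 82 lower; the split was 68 and 68 after median centring. No paired analysis was possible because the labels give no replicate numbers, and with 1 array per group no sample could be left out.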
